A study of Mus musculus with 6 samples.

Results

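The 29 sterol and fatty acid synthesis genes described here were picked by name from a deposited expression table of 18158 features, by a rule that uses no measured value, although earlier results of these data were known when the names were chosen. All 29 were found in the table and all were above 0 TPM (a transcript level corrected for gene length and scaled so that every library has the same total) in each of 6 libraries. They comprise 7 enzymes of the mevalonate arm, 11 enzymes from squalene to cholesterol, 6 genes of SREBP regulation and sterol transport, and 5 genes of fatty acid synthesis. Ventricle RNA was taken from 3-month-old mice of CD1, which is an outbred stock. Vehicle mice (3) were injected with PBS. Paro/Neo mice (3) were given paromomycin with neomycin, both aminoglycosides, at 150 mg/kg 2 times a day by the intraperitoneal route. Treatment ran for 14 days in each group. No transgene or deletion is named in the labels, each library is 1 mouse, and each sample is a mixture of all ventricular cell types, so fewer cells of a type and less RNA per cell cannot be told apart.

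Cells make cholesterol from acetyl-CoA through mevalonate, farnesyl diphosphate, squalene and lanosterol, and they make fatty acids from the same acetyl-CoA. Both routes are switched on by SREBP transcription factors, which Srebf1 and Srebf2 encode: SCAP carries the precursors from the endoplasmic reticulum to the Golgi for cleavage when sterols are scarce, and INSIG proteins hold them back when sterols are plentiful. SREBP-bound promoters commonly hold a sterol regulatory element close to a CCAAT box, the site of the factor NF-Y. The adult heart burns fatty acids as its main fuel and makes little of its own.

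The series was designed to read gene expression when Paro/Neo suppresses the activity of Meis1 and Hoxb13. The libraries held at least 9556387 to 15969980 reads each, inferred from ratios between libraries. Summed markers of ventricular cardiomyocytes stood at 119000 to 126000 TPM in vehicle and 107000 to 140000 TPM in Paro/Neo hearts, and atrial markers at 683 to 1100 and 575 to 1260 TPM, so atrial transcripts were present in tissue labelled ventricle. Nppa (240 to 1070 TPM) made up most of the atrial sum in every library except Paro/Neo replicate 1. There it was lowest, at 240 of 769 TPM, and Myl7, Sln and Myl4 together made up most of the sum. These 3 genes were all highest in that library (221, 93.7 and 214 TPM) and lowest in vehicle replicate 1 (25.7, 12.4 and 22.7 TPM). Paro/Neo replicate 1 stood apart: its mean correlation with the other libraries over tested genes was 0.9755 (Pearson, log2(TPM + 1)), against 0.9814 to 0.9853 for the rest, and its deviations followed gene GC content with a Spearman coefficient of -0.349 across genes, against -0.118 to 0.301. Of 12409 genes tested with limma, 15 had a higher and 2 a lower level after Paro/Neo at an adjusted p under 0.05.

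None of the sterol and fatty acid synthesis genes passed that threshold, against 0.137% of all tested genes (0.121% higher and 0.0161% lower). Of the 29 genes, 26 reached the level needed for testing, and Idi1, Lss and Elovl6 did not. Lower levels in Paro/Neo than in vehicle hearts were seen for 19 of the 26, or 73.1%, where 53.7% of all tested genes were lower. The median log2 change was -0.16, against -0.02 for all tested genes. An unadjusted p under 0.05 by limma was reached by 5 genes, all lower (Cyp51, Pmvk, Nsdhl, Srebf2 and Sqle), and by 0 on the higher side, where 4.37% of all tested genes were lower and 3.24% higher at that level. In 8 of the 26 (Hmgcs1, Pmvk, Fdps, Sqle, Cyp51, Nsdhl, Hsd17b7 and Srebf2), or 30.8%, every Paro/Neo heart lay below every vehicle heart, a pattern that 8.22% of all tested genes showed, and in 0 of the 26 every Paro/Neo heart lay above, against 6.04%. Without Paro/Neo replicate 1, 17 of the 26 were lower. Without vehicle replicate 2, 16 of the 26 were lower and the median was -0.04, and with libraries weighted by their fit it was -0.07. No test was made over the list.

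**Figure D1:**
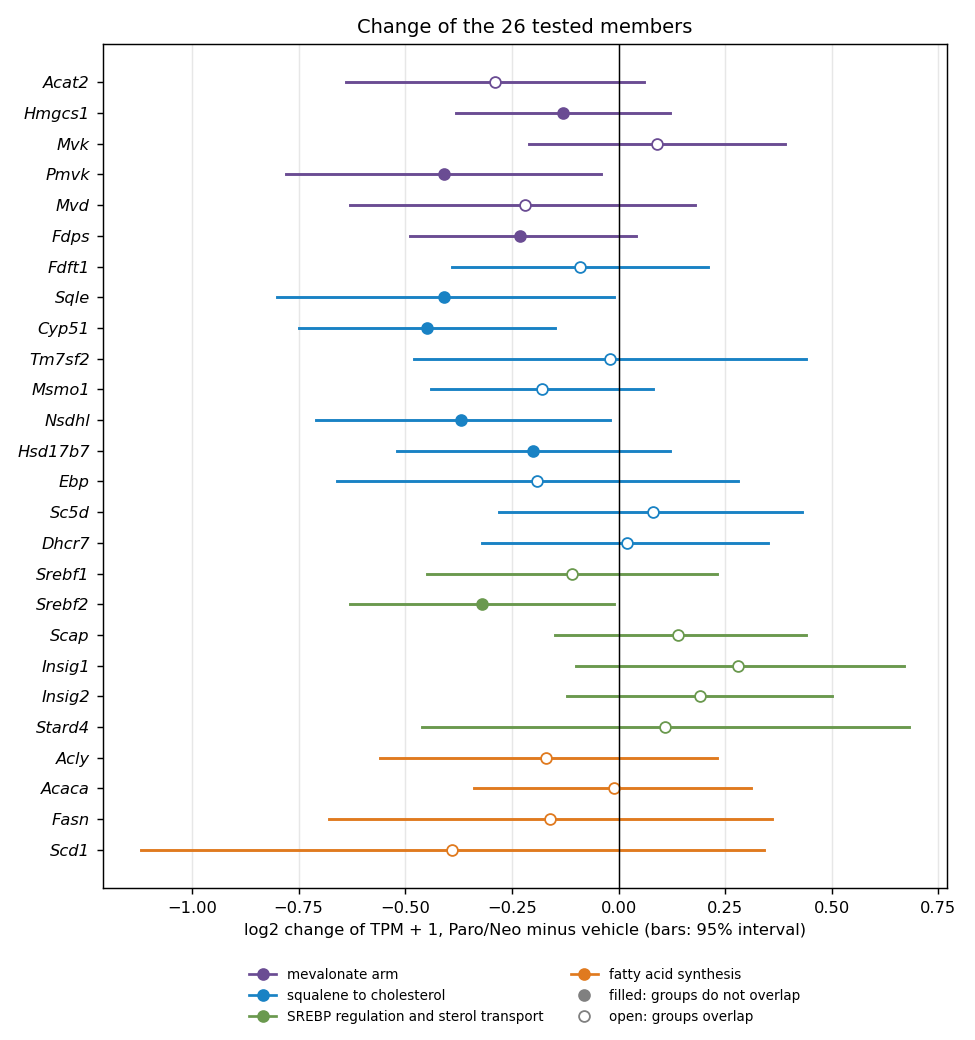
Log2 change of TPM + 1 (x axis, Paro/Neo minus vehicle) for the 26 tested genes in pathway order (y axis), with 95% intervals from limma as bars, colours for the 4 gene groups and filled points where the 3 Paro/Neo and 3 vehicle hearts do not overlap. The 8 filled points all lie below 0, the lowest being Cyp51 at -0.45, and 4 of the 6 regulation and transport genes lie above 0.

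The levels of these genes in the ventricle spread over 262-fold from lowest to highest. Averaged over the 6 libraries, Insig2 was the highest at 87.4 TPM, followed by Hmgcs1 at 42.7, Fdft1 at 30.8, Sc5d at 23.8 and Msmo1 at 23.2 TPM. The lowest was Idi1, which isomerises isopentenyl diphosphate, at 0.333 TPM with 4 to 13 reads per library. Elovl6, which elongates fatty acids of intermediate length, averaged 0.636 TPM and Lss, which closes squalene epoxide into lanosterol, 0.886 TPM. Fasn, the fatty acid synthase itself, averaged 1.66 TPM, and Acaca, which commits acetyl-CoA to fatty acids as malonyl-CoA, 1.16 TPM. Sqle, which makes the epoxide of squalene, was at 1.39 TPM while the genes on either side of it in the route, apart from Lss, were far higher (Fdft1 at 30.8 and Cyp51 at 19.5 TPM). Neighbours in this order were often closer than the mice of one gene: Sc5d ran from 21.1 to 30.3 TPM and Msmo1 from 20.0 to 26.3 TPM.

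**Figure D2:**
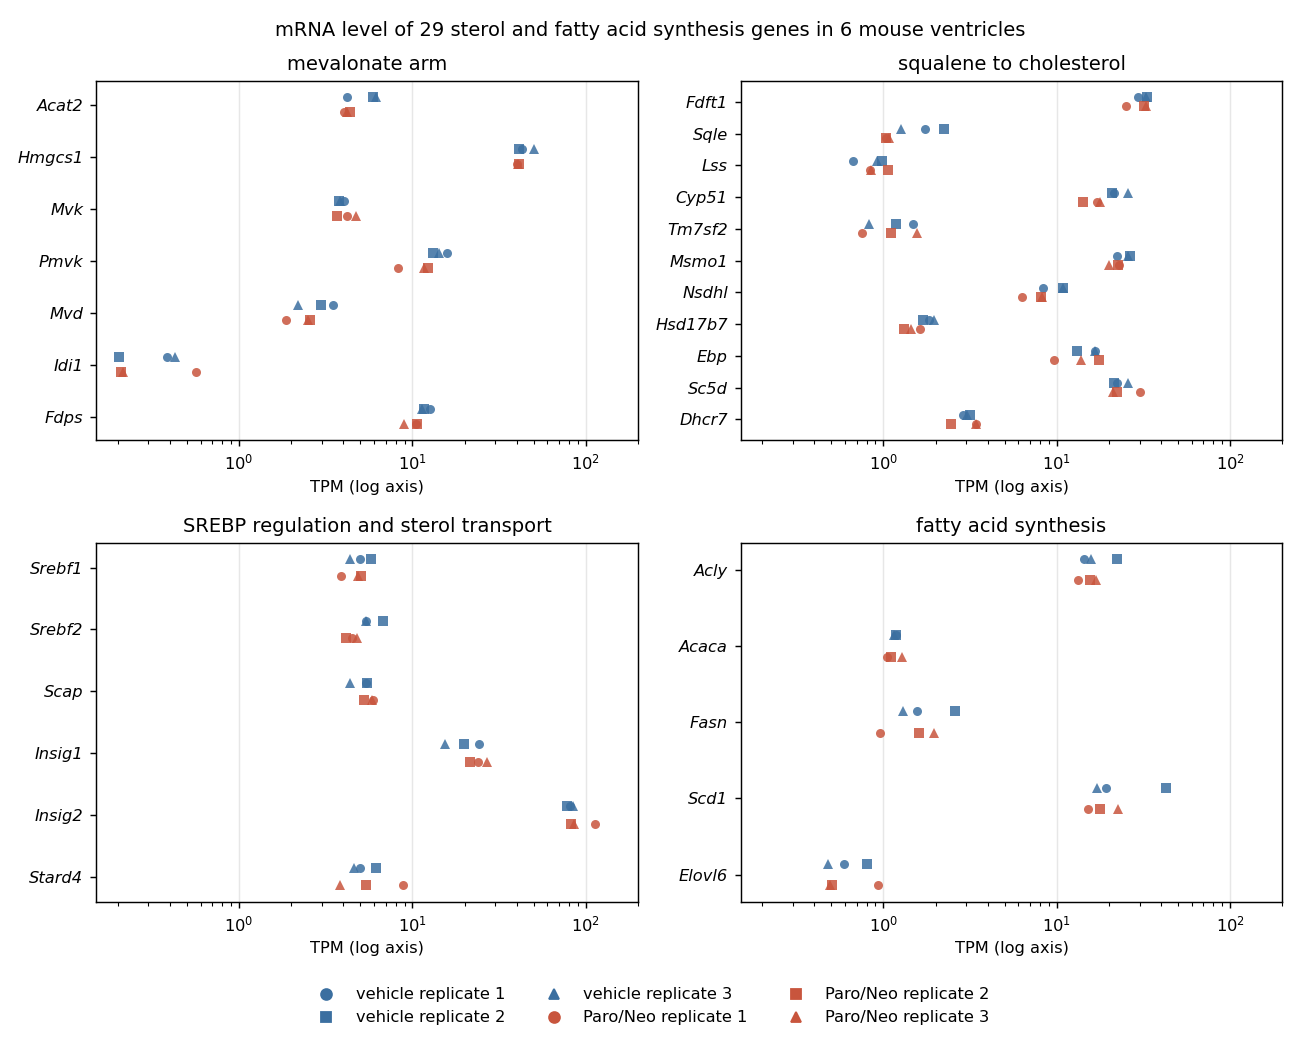
TPM on a log axis (x axis) for each of the 29 genes (y axis, 4 panels by group), with 1 point per mouse, blue for vehicle and red for Paro/Neo hearts and a marker shape for the replicate. Levels run from 0.204 TPM for Idi1 to 113 TPM for Insig2, and the distance between genes is far larger than that between groups.

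Promoter sequences are shown for 7 genes: the 4 whose windows hold a short sterol element (Hmgcs1, Srebf2, Cyp51 and Hsd17b7), 2 more whose groups did not overlap (Nsdhl and Pmvk), and Insig1, which lay on the higher side. Capitals mark TCACCNCA, a shortened sterol regulatory element, and CCAAT boxes, each on either strand, and every sequence runs 5′ to 3′ in the direction of its gene, within the 250 bases before the start site and outside annotated exons. They come from RefSeq on GRCm38.p6 and lie, in the order given, at chr13:119690114-119690233 on the plus strand, chr15:82147058-82147177 on the plus strand, chr5:4104747-4104866 on the minus strand, chr1:169969268-169969387 on the minus strand, chrX:72918412-72918520 on the plus strand, chr3:89454405-89454524 on the plus strand and chr5:28071183-28071302 on the plus strand.
Hmgcs1 promoter: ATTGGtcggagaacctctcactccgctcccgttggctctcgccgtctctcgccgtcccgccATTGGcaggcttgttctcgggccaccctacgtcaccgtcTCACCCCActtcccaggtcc
Srebf2 promoter: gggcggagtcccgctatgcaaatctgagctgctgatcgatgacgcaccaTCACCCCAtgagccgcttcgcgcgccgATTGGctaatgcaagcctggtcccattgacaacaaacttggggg
Cyp51 promoter: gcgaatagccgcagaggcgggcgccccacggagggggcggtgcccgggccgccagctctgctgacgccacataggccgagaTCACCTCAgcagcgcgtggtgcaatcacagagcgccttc
Hsd17b7 promoter: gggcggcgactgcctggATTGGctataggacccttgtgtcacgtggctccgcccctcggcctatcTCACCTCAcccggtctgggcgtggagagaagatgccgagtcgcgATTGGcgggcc
Nsdhl promoter: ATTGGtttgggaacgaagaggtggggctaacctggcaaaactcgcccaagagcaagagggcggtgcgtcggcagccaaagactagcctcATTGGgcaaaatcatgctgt
Pmvk promoter: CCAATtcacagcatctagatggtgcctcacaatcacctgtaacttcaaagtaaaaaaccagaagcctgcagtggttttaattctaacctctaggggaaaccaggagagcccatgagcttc
Insig1 promoter: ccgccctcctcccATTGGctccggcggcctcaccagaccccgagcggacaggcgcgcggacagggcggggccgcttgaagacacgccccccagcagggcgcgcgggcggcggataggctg

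Windows of 300 bases, from 250 before to 50 after a start site, were at hand for 24 of the 29 genes. The element TCACNCCAC, which is longer, was found in the window of Hmgcs1 only, 1 of 24 genes or 4.2%, against 1.37% of the tested genes with a window. The form TCACCNCA, chosen after these promoters had been read, was present in 4 of 24 (16.7%, against 4.68%). Each of those 4 windows also held a CCAAT box, a pair found in 1.75% of tested genes with a window. Because the form was picked from these same promoters, nothing is read from either comparison. The CCAAT box of Cyp51 lies outside the stretch printed. In Hmgcs1 both forms of the sterol element match at the same place. CCAAT on either strand was present in 20 of 24 (83.3%, against 42.78%), and the GC box GGGCGG in 20 of 24 (83.3%, against 68.93%). A match is a run of letters and not a shown binding site.

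**Figure D3:**
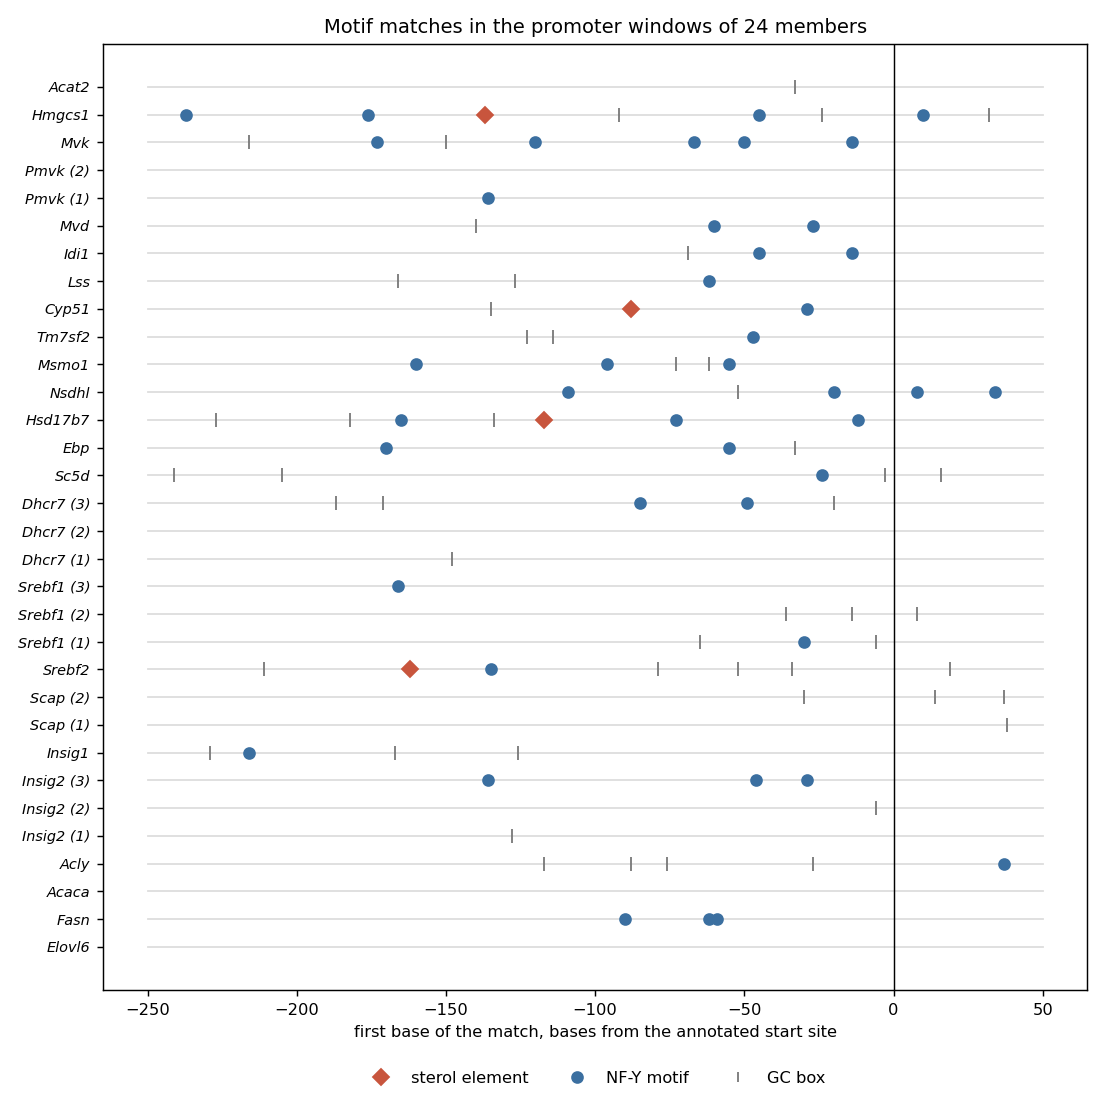
Position of each motif match (x axis, bases from the annotated start site, from 250 before it to 50 after it) in the promoter windows of 24 genes (y axis, with windows of a gene numbered by chromosome position), with diamonds for the short sterol element, circles for CCAAT boxes (the NF-Y motif) and ticks for GC boxes. Diamonds occur in 4 genes, between 162 and 88 bases before the start site, and circles in 20.

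Of the 6 tested enzymes of the mevalonate arm, 5 lay lower after Paro/Neo. Their median log2 change was -0.23, and none passed the threshold. Summed over all 7 genes, the arm stood at 83.4, 78.6 and 88.6 TPM in vehicle and at 69.6, 74.9 and 72.9 TPM in treated hearts. Pmvk (chr3:89454541-89469013, plus strand) phosphorylates phosphomevalonate. It was at 15.9, 13.1 and 14.3 TPM in vehicle replicates 1 to 3 and at 8.21, 12.3 and 11.7 TPM in Paro/Neo replicates 1 to 3. The groups did not overlap, and Paro/Neo replicate 1 was the lowest by a wide margin. The means were 14.4 ± 1.41 and 10.7 ± 2.21 TPM (SD, n = 3 each). The log2 change was -0.41 ± 0.16 (SE), with an unadjusted p of 0.035 and an adjusted p of 0.593 by limma, and it was -0.24 without Paro/Neo replicate 1.

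Fdps makes farnesyl diphosphate, the branch point to sterols and isoprenoids. Its levels were 12.7, 11.6 and 11.4 TPM in vehicle and 10.5, 10.6 and 8.98 TPM after Paro/Neo, without overlap. Its log2 change was -0.23 ± 0.11 (adjusted p 0.698 by limma). Part of the Fdps exons is shared with the overlapping gene model Gm43738 on the same strand, so its reads may have been divided.

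Acat2 condenses acetyl-CoA to acetoacetyl-CoA. It was at 4.18, 5.9 and 6.17 TPM in vehicle and at 4.05, 4.39 and 4.17 TPM in Paro/Neo hearts. The treated hearts were close together, and vehicle replicate 1 lay among them. Its log2 change was -0.29 ± 0.15 (adjusted p 0.706), and it was -0.44 without vehicle replicate 1.

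Hmgcs1 (chr13:119690379-119708260, plus strand) makes HMG-CoA and is a standard SREBP target, and its difference was small. It was at 42.7, 41.1 and 50.3 TPM in vehicle and at 40.2, 41.1 and 40.6 TPM in Paro/Neo hearts. The groups did not overlap, but vehicle replicate 2 and Paro/Neo replicate 2 were equal to 3 digits. Its log2 change was -0.13, with a 95% interval of -0.38 to 0.12 (adjusted p 0.782), and it was -0.04 without vehicle replicate 3. Mvd, which decarboxylates mevalonate diphosphate, averaged 2.88 TPM in vehicle and 2.3 TPM after Paro/Neo with overlap, and its log2 change of -0.22 was -0.12 without Paro/Neo replicate 1 and -0.11 without vehicle replicate 1. Mvk, the mevalonate kinase, was the tested enzyme of this arm with a higher mean in treated hearts, at 3.88 against 4.2 TPM. Idi1, too low to test, averaged 0.338 and 0.328 TPM.

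Between squalene and cholesterol, 8 of 10 tested enzymes lay lower after Paro/Neo and 2 higher. The median log2 change was -0.18, and none passed the threshold. Cyp51 (chr5:4081145-4104746, minus strand), the lanosterol demethylase, had the smallest p of the 29 genes. Its levels were 21.5, 20.7 and 25.7 TPM in vehicle replicates 1 to 3 and 17.0, 14.2 and 17.7 TPM in Paro/Neo replicates 1 to 3. All treated hearts lay below all vehicle hearts, with Paro/Neo replicate 2 the lowest. The means were 22.7 ± 2.67 and 16.3 ± 1.83 TPM (SD, n = 3 each), a 1.39-fold ratio of vehicle to treated. The log2 change was -0.45 ± 0.13 (SE), with a 95% interval of -0.75 to -0.15, an unadjusted p of 0.00866 and an adjusted p of 0.45 by limma. With each library left out in turn it stayed between -0.51 and -0.36, with an unadjusted p under 0.05 in all 6 fits and adjusted p of 0.45 to 0.79. Its exons overlap those of Akap9 on the opposite strand, and whether the counting used strand is not given in the sources used here. Exons of Hmgcs1, Srebf1, Scap, Idi1, Lss and Elovl6 also overlap gene models on the opposite strand.

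Nsdhl (chrX:72918557-72958514, plus strand) acts with Msmo1 and Hsd17b7 in taking the remaining methyl groups off the sterol ring. It was at 8.37, 10.8 and 10.8 TPM in vehicle and at 6.3, 8.08 and 8.21 TPM in Paro/Neo hearts. The groups did not overlap, although vehicle replicate 1 stood just above the highest treated heart. Its log2 change was -0.37 ± 0.15 (unadjusted p 0.0402, adjusted p 0.624), and it was -0.26 without Paro/Neo replicate 1.

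Sqle (chr15:59315077-59331192, plus strand), an enzyme often limiting for sterol synthesis, was at 1.73, 2.23 and 1.26 TPM in vehicle and at 1.03, 1.03 and 1.07 TPM in Paro/Neo hearts. The 3 treated hearts were nearly equal and the vehicle hearts widely spread, on 17 to 42 reads per library. The ratio of means was 1.67-fold higher in vehicle, and the log2 change on the TPM + 1 scale was -0.41 ± 0.17 (unadjusted p 0.0437, adjusted p 0.64). Sqle reached an unadjusted p under 0.05 in 1 of the 6 fits that left out a library, as did Srebf2, Nsdhl in 2 and Pmvk in 3.

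Hsd17b7 also did not overlap, with means of 1.83 and 1.46 TPM and 40 to 69 reads per library (adjusted p 0.757). Msmo1 averaged 24.7 and 21.7 TPM, vehicle first, and Ebp, the sterol isomerase, 15.4 and 13.6 TPM, both with overlap. Ebp was lowest in Paro/Neo replicate 1 at 9.66 TPM and highest in Paro/Neo replicate 2 at 17.6 TPM. Fdft1, which makes squalene, averaged 31.7 and 29.8 TPM, and its exons overlap those of Ctsb on the opposite strand. Sc5d and Dhcr7, the enzymes of late ring desaturation and reduction, had log2 changes of 0.08 and 0.02, which turned to -0.08 and -0.05 without Paro/Neo replicate 1 and to -0.04 and -0.08 with libraries weighted by their fit. In turn Ebp, Fdft1 and Tm7sf2 had log2 changes of -0.19, -0.09 and -0.02, which turned to 0.02, 0.03 and 0.12 without Paro/Neo replicate 1. Tm7sf2, a sterol reductase whose exons overlap those of Vps51, averaged 1.16 and 1.14 TPM, and Lss 0.858 and 0.914 TPM. Over the 18 enzymes of both arms, 13 of 16 tested were lower (12 without Paro/Neo replicate 1), and their summed level was 212, 213 and 234 TPM in vehicle against 188, 198 and 195 TPM in Paro/Neo hearts. These sums, led by Hmgcs1 and Fdft1, did not overlap.

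The list of other sterol and isoprenoid synthesis, outside the 29, held 8 tested genes, 4 higher and 4 lower, 0 past the threshold and 0 at an unadjusted p under 0.05 by limma. Its smallest p belonged to Erg28, listed under the older name 0610007P14Rik, which encodes a scaffold for the sterol demethylation enzymes. Erg28 was at 13.9, 16.1 and 17.2 TPM in vehicle and 8.35, 14.9 and 12.0 TPM in treated hearts, with overlap (log2 change -0.42 ± 0.19, adjusted p 0.671).

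Among the 6 genes of SREBP regulation and sterol transport, Srebf1 and Srebf2 lay lower after Paro/Neo and the other 4 (Scap, Insig1, Insig2 and Stard4) higher. Their median log2 change was 0.13, and none passed the threshold. Srebf2 (chr15:82147181-82205379, plus strand), whose product drives sterol synthesis and uptake, was at 5.37, 6.8 and 5.39 TPM in vehicle and 4.46, 4.12 and 4.8 TPM after Paro/Neo. All treated hearts lay below all vehicle hearts, and vehicle replicate 2 was the highest. The log2 change was -0.32 ± 0.13 (95% interval -0.63 to -0.01, unadjusted p 0.0423, adjusted p 0.633 by limma). Srebf1, whose product drives fatty acid synthesis, was at 5.0, 5.8 and 4.35 TPM in vehicle and 3.88, 5.04 and 4.88 TPM after Paro/Neo, so the groups overlapped (log2 change -0.11, 95% interval -0.45 to 0.23, adjusted p 0.856). It was -0.015 without Paro/Neo replicate 1 and -0.023 without vehicle replicate 2.

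Insig1 (chr5:28071363-28078662, plus strand), itself an SREBP target that retains SCAP, was at 24.2, 19.8 and 15.5 TPM in vehicle and 23.9, 21.6 and 26.9 TPM after Paro/Neo. Paro/Neo replicate 3 was the highest and vehicle replicate 3 the lowest, but vehicle replicate 1 was as high as the treated hearts, so the groups overlapped. Its log2 change of 0.28 ± 0.17 (adjusted p 0.726) was opposite in sign to that of Srebf2, Hmgcs1 and Cyp51. Left-out libraries moved it to between 0.13 without vehicle replicate 3 and 0.43 without vehicle replicate 1.

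Insig2, the family member that is less dependent on SREBP, was at 81.3, 77.7 and 84.5 TPM in vehicle and 113, 81.9 and 85.8 TPM after Paro/Neo. Paro/Neo replicate 1 alone stood high, and the log2 change of 0.19 ± 0.13 (adjusted p 0.76) was 0.05 without it. Stard4, a carrier of sterols between membranes, was likewise highest in Paro/Neo replicate 1, at 8.78 TPM, and lowest in Paro/Neo replicate 3, at 3.83 TPM, so that its log2 change of 0.11 became -0.16 without the former. Scap averaged 5.06 TPM in vehicle and 5.68 TPM after Paro/Neo, with vehicle replicate 3 the lowest at 4.36 TPM and the other 5 libraries at 5.23 to 5.94 TPM. Without Paro/Neo replicate 1, 3 of the 6 regulators were higher and 3 lower, and the median of the group was 0.02. With libraries weighted by their fit the split was the same and the median 0.03, and without vehicle replicate 3 the median was 0.05.

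All 4 tested genes of fatty acid synthesis had lower means after Paro/Neo, and their median log2 change was -0.16. It was 0.01 without vehicle replicate 2, with 1 member lower and 3 higher, -0.03 without Paro/Neo replicate 1, with 2 lower and 2 higher, and -0.04 with libraries weighted by their fit. Of these, Scd1 (chr19:44394455-44407879, minus strand), which desaturates stearoyl-CoA, was at 19.2, 42.6 and 17.1 TPM in vehicle and 15.1, 17.7 and 22.4 TPM after Paro/Neo. Vehicle replicate 2 stood far above the other 5 libraries, and the groups overlapped. The log2 change was -0.39 ± 0.32 (adjusted p 0.78 by limma), and without vehicle replicate 2 it was 0.004.

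Acly, which makes cytosolic acetyl-CoA from citrate, was at 14.4, 22.1 and 15.8 TPM in vehicle and 13.2, 15.6 and 16.9 TPM after Paro/Neo. Fasn was at 1.56, 2.57 and 1.29 TPM in vehicle and 0.958, 1.61 and 1.96 TPM after Paro/Neo. In both genes vehicle replicate 2 was the highest and Paro/Neo replicate 1 the lowest. Their log2 changes of -0.17 and -0.16 (adjusted p 0.821 and 0.866) became 0.01 and 0.03 without vehicle replicate 2, and that of Fasn became 0.01 without Paro/Neo replicate 1. Acaca averaged 1.17 TPM in vehicle and 1.15 TPM after Paro/Neo, with a 95% interval of -0.34 to 0.31 for the log2 change. Elovl6, untested, was highest in Paro/Neo replicate 1 at 0.935 TPM and next in vehicle replicate 2 at 0.809 TPM, against 0.479 to 0.595 TPM in the other 4 libraries.

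Adipocyte markers, from cells that express Scd1, Fasn and Acly strongly, summed to 27.4, 31.4 and 24.2 TPM in vehicle and 15.8, 24.4 and 42.9 TPM after Paro/Neo. Of the 8 markers, 4 were tested, 2 higher and 2 lower. Car3 alone gave 14.2, 16.2 and 9.31 TPM of these sums in vehicle and 6.55, 14.5 and 25.3 TPM after Paro/Neo, so the sums largely follow this 1 gene. Vehicle replicate 2 had the highest sum of the vehicle group and Paro/Neo replicate 1 the lowest of all, as for Scd1, Fasn and Acly, but the largest sum was in Paro/Neo replicate 3, where Scd1 was at 22.4 TPM. Adipoq was at 1.91 to 4.01 TPM in all libraries and Lep at 0 in some. The brown fat markers were mixed: Ucp1 was at 0 in all but 1 library and Elovl3 at 0 in all 6. Dio2 was at 0.756 to 1.54 TPM. Cidea was at 47.9, 45.6 and 46.1 TPM in vehicle and 59.3, 61.5 and 49.1 TPM after Paro/Neo, higher in every treated heart (unadjusted p 0.042, adjusted p 0.633 by limma). The part of adipocytes in these differences was not tested.

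**Figure D4:**
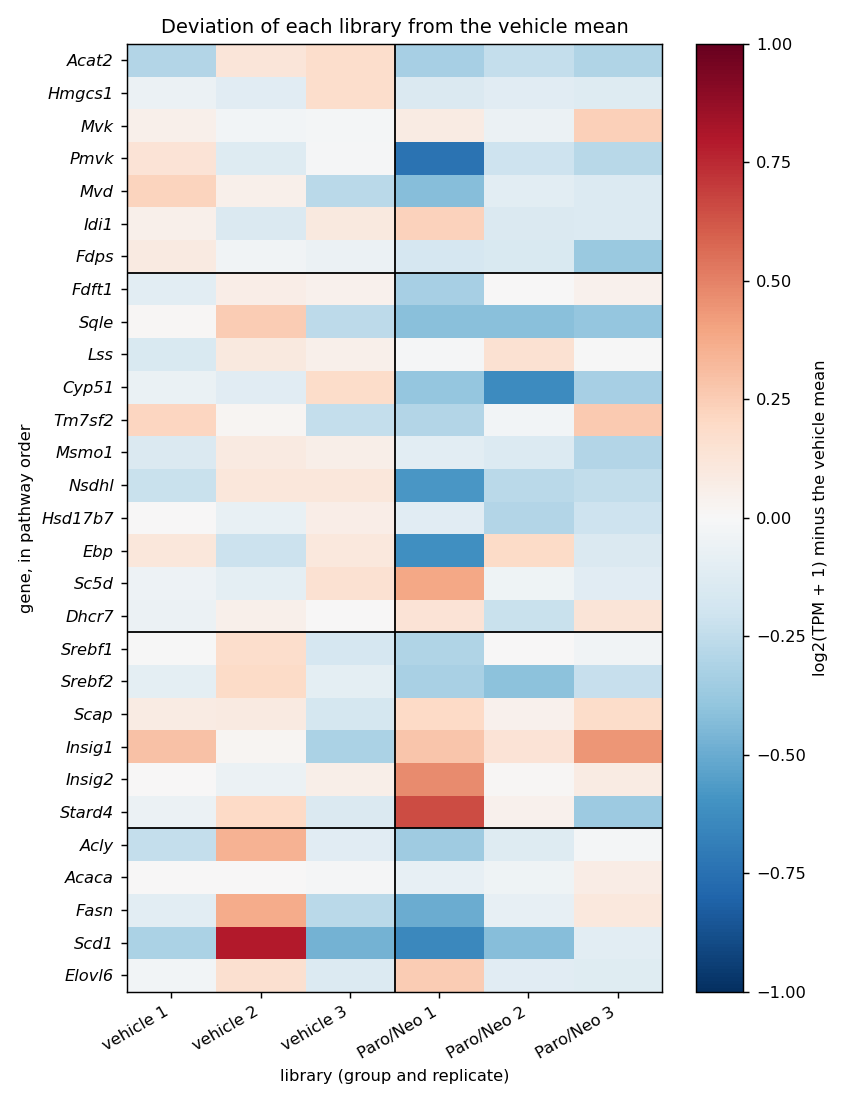
Deviation of log2(TPM + 1) from the vehicle mean (colour, red higher and blue lower) for the 29 genes in pathway order (y axis) in each of the 6 libraries (x axis), with lines between the 4 gene groups. The 3 Paro/Neo columns are blue for Cyp51, Sqle, Nsdhl, Pmvk and Srebf2, Paro/Neo replicate 1 is red for Insig2 and Stard4, and vehicle replicate 2 is red for Scd1, Fasn and Acly.

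Across the libraries, Paro/Neo replicate 1 was the lowest library for 13 of the 29 genes and the highest for 7, where it was the lowest for 32.7% and the highest for 27.1% of all tested genes. The median deviation of the tested members from the vehicle mean was -0.30 for Paro/Neo replicate 1 and -0.11 and -0.12 for replicates 2 and 3, against -0.03 to 0.05 in vehicle hearts. For the 16 tested enzymes of sterol synthesis it was -0.31, -0.14 and -0.18, against -0.02 to 0.05. Among markers of other cell types none passed the threshold. All 7 fibroblast markers were lower, 3 of them at an unadjusted p under 0.05 by limma, and in 4 of 7 every Paro/Neo heart lay below every vehicle heart. Of all tested genes, 53.7% were lower, 4.37% were lower at that p, and 8.22% had every Paro/Neo heart below. The collagen genes Col1a1, Col1a2 and Col3a1 had log2 changes of -0.83, -0.78 and -0.82 without overlap, larger than that of any of the 29 genes. Tcf21 was at -0.3 without overlap. Pdgfra, Lum and Dcn were at -0.11, -0.03 and -0.02 with overlap, so some fibroblast markers were close to 0. Col3a1, at 219, 216 and 223 TPM in vehicle and 80.6, 158 and 149 TPM after Paro/Neo, had an adjusted p of 0.434, and all 3 collagens were lowest in Paro/Neo replicate 1. Dcn, at 1840 and 1820 TPM on average, made up most of the summed fibroblast level of 2450 to 2560 TPM in vehicle and 2180 to 2430 TPM in Paro/Neo hearts. Of the endothelial markers, 5 of 7 were lower, 1 of them at an unadjusted p under 0.05 by limma. In 2 of the 7 every Paro/Neo heart lay below every vehicle heart. Their summed levels were 510 to 593 TPM in vehicle and 398 to 524 TPM in Paro/Neo hearts. Macrophage markers were higher for 6 of 7, at summed levels of 200 to 237 and 210 to 270 TPM. Of these, Cx3cr1 had an unadjusted p of 0.0273 and an adjusted p of 0.569 by limma. Of all tested genes, 3.24% were higher at an unadjusted p under 0.05. Schwann cell markers, from cells rich in sterol synthesis, summed to 9.47 to 9.64 TPM in vehicle and 7.9 to 12.2 TPM in Paro/Neo hearts. Smooth muscle and pericyte markers summed to 445 to 542 and 395 to 691 TPM, erythroid markers to 2370 to 5000 and 2430 to 3800 TPM, and lymphocyte markers to 1.09 to 2.31 and 2.55 to 3.68 TPM. The 8 lymphocyte markers were too low to test, each at 0 to 12 reads per library, which limits what their sums show. The part of these cell types in the results was not tested.

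The rest of the pathway, given by lists of genes outside the 29, had 0 genes past the threshold. Sterol uptake and transport had 4 of 8 tested genes higher and 4 lower. Tmem97, a sterol-responsive membrane protein, averaged 7.49 and 5.68 TPM with overlap, and Osbpl2, an oxysterol-binding protein, was higher in every treated heart, at 42.1 and 46.1 TPM on average (adjusted p 0.771). Of the 10 genes of SREBP cleavage and sterol-regulated degradation, 5 were higher and 5 lower, and the smallest p belonged to Ufd1l (68.8 and 60.6 TPM) and Pgrmc1 (47.9 and 44.4 TPM).

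All 9 tested genes of the LXR and efflux list lay lower, where 53.7% of all tested genes were lower. The log2 changes ran from -0.37 to -0.01, so some were close to 0. The median log2 change was -0.15, with 0 genes at an unadjusted p under 0.05 by limma. LXR factors sense oxysterols and switch on genes that export cholesterol. The export pumps Abcg1 (2.04, 2.66 and 2.2 TPM in vehicle and 1.51, 1.98 and 1.19 TPM in treated hearts) and Abca1 (15.8, 14.8 and 14.1 against 11.8, 14.0 and 12.6 TPM) did not overlap, with adjusted p of 0.66 and 0.708. The median deviation of this list was -0.31 for Paro/Neo replicate 1 but 0.02 and -0.06 for replicates 2 and 3.

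Of 20 tested genes of other fatty acid and triglyceride synthesis, 10 lay higher and 10 lower. Its lowest p belonged to Scd2, a paralog of Scd1 with the same desaturase activity. Scd2 was at 24.4, 34.1 and 28.6 TPM in vehicle and 13.6, 20.2 and 18.7 TPM after Paro/Neo. Each treated heart lay below each vehicle heart, a 1.66-fold ratio of means, and the log2 change was -0.71 ± 0.18 (unadjusted p 0.00386, adjusted p 0.321). Scd paralogs are similar in sequence, so reads of Scd1, Scd2 and Scd4 may have been divided between them. Dgat2, which makes triglycerides, was at 88.1, 77.0 and 86.7 TPM in vehicle and 106, 104 and 109 TPM after Paro/Neo, again without overlap (log2 change 0.34 ± 0.09, unadjusted p 0.00741, adjusted p 0.422). Fads2, a desaturase of polyunsaturated fatty acids, at 4.8 and 3.19 TPM on average, and Elovl1, an elongase of long saturated chains, at 14.1 and 10.1 TPM, were the other 2 genes of the list at an unadjusted p under 0.05, and both were named after their values were seen.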

How the data were processed

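The deposited table held 1 TPM column per mouse, made by the authors, and each column sums to 1000000. The submitters' processing notes name mm10, STAR 2.5.3a, FastQC 0.11.5, edgeR, featureCounts and Subread without saying what each did. The annotation, the strand setting and any feature filter are not stated in those notes. A gene was tested if 3 or more of the 6 libraries had 1 TPM of it. limma 3.58.1 in R 4.3.3 was fitted to log2(TPM + 1) with an intensity trend and no covariate, two-sided, with Benjamini-Hochberg adjustment over all 12409 genes and a threshold of 0.05. Intervals are 95% intervals on 8.03 degrees of freedom. On this scale the change of low genes is understated. The fit was also run on simulated data with independent noise for each gene and library. That run holds no library-wide deviation like that of Paro/Neo replicate 1. Whole reads were inferred from ratios between libraries (17574 of 17574 features above 0 came out whole within 0.001 of a read) and are lower estimates of depth. Gene positions are from GENCODE M21 and promoter sequences from RefSeq, both on GRCm38. The members and lists were chosen with earlier results of these data known. Genes given in every library were, per group, the 3 with the smallest p, plus Srebf1, Srebf2, Fasn and Hmgcs1. Named from each further pathway list were the 2 with the smallest p; some genes of these lists are not reported here. Each library is a separate mouse. Alternatives were another pseudocount, 2 other filters, rescaled libraries, array weights, a GC correction, a replicate block, voom on inferred reads, and leaving out each library.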

Additional observations from a re-analysis of the deposited data

How the results depend on the processing

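None of the tested members passed the threshold under any of the 15 alternatives, with adjusted p of 0.17 or more. Of 380 member values, 356 kept their direction and 24 reversed, in 10 members. The other 16 never reversed, among them all 5 with an unadjusted p under 0.05. Part of this was fixed in advance. The 2 other filters and the replicate block left each log2 change as it was. Adding the block to the GC correction repeated the values of that correction. In those 5 the groups did not overlap, so leaving out a library could not change their sign. The count of 356 is therefore no measure of support. Over all genes, the 15 higher and 2 lower calls became 5 and 1 with no filter on low values, 1 lower with a filter at a mean of 5 TPM, 4 lower with array weights, and 4 and 1 with a replicate block and a GC correction together. Leaving out each library gave 4 to 23 higher and 0 to 4 lower calls. A replicate block alone gave 25 higher calls; the title numbers did not pair the samples (correlations of same-numbered deviations -0.053, -0.036 and -0.122, and 0 of 6 libraries closest to their own number), and the block changed no member's call. The members' median was -0.074 with array weights and -0.177 to -0.041 with 1 library left out, and that of the sterol enzymes -0.233 to -0.155 over all alternatives. With array weights Fdft1 reversed to 0.007, Tm7sf2 to 0.027, Ebp to 0.004, Sc5d to -0.037, Dhcr7 to -0.084 and Stard4 to -0.011. With the GC correction, with or without the block, Tm7sf2 reversed to 0.031 and Acaca to 0.006. Leaving out each library gave -0.159 to 0.116 for Tm7sf2, -0.046 to 0.135 for Dhcr7, -0.286 to 0.008 for Acly, -0.29 to 0.03 for Fasn, -0.629 to 0.004 for Scd1, -0.164 to 0.028 for Fdft1, -0.381 to 0.021 for Ebp, -0.079 to 0.174 for Sc5d, -0.163 to 0.346 for Stard4 and -0.059 to 0.017 for Acaca. The number of members with every Paro/Neo heart below vehicle cannot fall when a library is left out, so nothing is read from it there. The cause of these shifts was not tested. Idi1, Lss, Elovl6, Tm7sf2 and Sqle had few reads, which limits what their values show.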
